A study of Sus scrofa with 2 samples.

Results

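Solute carriers are the membrane proteins that move sugars, amino acids, ions, metals, vitamins and nucleotide sugars across the membranes of a cell. The genes described here are all those whose symbol starts with SLC, a number and a letter, other than the mitochondrial SLC25A carriers. The RefSeq gene table for Sscrofa11.1 held 310 of them, of which 309 were protein-coding, among 16491 protein-coding genes with a unique symbol. The remaining one, SLC7A5, is listed in that table as a long non-coding RNA, had no assigned peak and was kept out of all shares. Of the 309 genes, 5 carry such a symbol but encode no carrier (SLC2A4RG, SLC4A1AP, SLC7A6OS, SLC9A3R1 and SLC9A3R2), so 304 encode carriers. The carriers fell into 51 organelle carriers (the families SLC30, SLC35 and SLC39), 204 plasma membrane carriers and 49 carriers of other or mixed location, by family and by known single exceptions.

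Immature spermatogonia of wild-type genotype from pig testes were used for CUT&Tag of ZBTB16, with 100000 cells in each of 2 libraries (replicate 1 and replicate 2) of a single group, and each library has its own peak list. CUT&Tag directs a transposase to a chromatin protein by an antibody and sequences the fragments released there, so a peak is a place where fragments pile up and not a measure of expression. The labels carry no treatment or age for these libraries and do not give the number of animals behind them, so any spread between the libraries may be technical, and the IgG control library and the knockdown RNA-seq of the series were not analysed here. With 1 group there was no comparison of conditions, and no test was run: genes are not replicates, so groups of genes are given as counts, shares with 95% Wilson intervals and medians beside the same for all genes.

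ZBTB16, also called PLZF, is a zinc finger transcription factor of the BTB family that in the mouse is needed to keep the pool of undifferentiated spermatogonia. Carriers of the SLC30 family move zinc out of the cytosol, into vesicles or out of the cell, and those of the SLC39 family move it in the opposite direction. Carriers of the SLC35 family bring nucleotide sugars and related substrates into the Golgi apparatus and endoplasmic reticulum, where glycosylation uses them, and plasma membrane carriers exchange nutrients and ions with the surroundings.

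Replicate 1 held 10273 peaks and replicate 2 held 7301. Of these, 113 peaks in replicate 1 were assigned to 107 solute carrier genes, and 75 peaks in replicate 2 to 69 of them. The deposited fold enrichment of a peak is the authors' ratio to the background of their peak caller, and the control behind that background is not given. The number of fragments at each summit was recovered from the fold and p-value of the peak. The median peak of a solute carrier gene rested on 15 fragments in replicate 1 (7 to 71) and 13 in replicate 2 (7 to 63), so most single peaks rested on few fragments. Among marker genes of the labelled cell type, 2 of 10 had a promoter peak in both libraries (ETV5 and ID4) and 0 of 16 markers of other testis cells, against 20.8% of all protein-coding genes, so the count for the labelled type stands at the share of all genes. These peaks do not show which cells the libraries held.

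A gene was called bound when both libraries gave it a promoter peak. Of the 309 solute carrier genes, 31 were bound, which is 10.0% (7.16 to 13.9), against 20.8% of all protein-coding genes. One of them, SLC9A3R1, encodes no carrier, and of the 304 carriers 30 were bound (9.87%, 7.0 to 13.7). The share of the 309 genes was below that of all genes in each library too. In replicate 1, 58 genes had a promoter peak (18.8%, 14.8 to 23.5), against 32.8% of all genes. In replicate 2, 40 genes had one (12.9%, 9.65 to 17.1), against 24.9% of all genes. The authors' promoter class reaches up to 3 kb upstream and ends at the transcription start site (TSS), so a peak that begins just inside the gene is listed as 5′ UTR, exon or intron. That TSS is the one the authors assigned to the peak, and it can lie inside the gene, as for SLC39A10, SLC12A9 and SLC6A9. With peaks of any class whose nearest edge lay within 1 kb of the TSS on either side, a rule added after the data were seen, 41 genes had a peak in both libraries (13.3%, 9.93 to 17.5), against 24.1% of all genes. With any assigned peak, 55 had one in both (17.8%, 13.9 to 22.5), against 28.2% of all genes. By each of these rules the solute carrier genes stood below the share of all genes, with the upper bound of the interval below it. The intervals cover counting error over genes only.

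The remaining genes split by what they lacked. For this split the matching shares of all genes were not computed, so the counts describe the members only. No peak was assigned to 188 of the 309 in either library. By assigned peaks in replicate 1 alone, 22 genes had a promoter peak and 30 had a peak of another class. By assigned peaks in replicate 2 alone, 6 had a promoter peak (SLC13A5, SLC15A4, SLC1A5, SLC35F1, SLC45A3 and SLC4A4) and 8 had a peak of another class. Assignment to 1 gene sets some of these: the 3.93-fold replicate 1 promoter peak of SLC12A2, a sodium-potassium-chloride cotransporter, overlapped promoter peaks of 3.59-fold and 4.48-fold in replicate 2 that were assigned to LOC100516424. A further 10 had peaks near the TSS in both libraries without a promoter call in both. Another 14 had peaks in both libraries but met neither description. Of these, SLC19A1, SLC1A4, SLC3A2 and SLC45A1 had a promoter peak in 1 library.

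Among the organelle carriers, 7 of 51 were bound (13.7%, 6.81 to 25.7), against 17 of 204 plasma membrane carriers (8.33%, 5.27 to 12.9). The difference was 5.39 percentage points, with a Newcombe interval of −2.92 to 17.8 that includes 0. Carriers of other or mixed location had 6 bound genes of 49 (12.2%, 5.73 to 24.2). With peaks of any class within 1 kb of the TSS, 12 organelle carriers (23.5%, 14.0 to 36.8) and 21 plasma membrane carriers (10.3%, 6.83 to 15.2) had a peak in both libraries, a difference of 13.2 points (2.51 to 26.9). By this rule organelle carriers stood close to the 24.1% of all genes, while the interval of the plasma membrane carriers lay below it. With any assigned peak in both libraries the shares were 23.5% of organelle carriers and 16.2% of plasma membrane carriers (11.8 to 21.8), a difference of 7.35 points (−3.73 to 21.3). At the other end, 23 of 51 organelle carriers (45.1%) and 135 of 204 plasma membrane carriers (66.2%) had no assigned peak in either library, and the share of all genes without one was not computed. All of these differences had the same sign, and their size depended on how a peak near the start of a gene was counted.

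**Figure D1:**
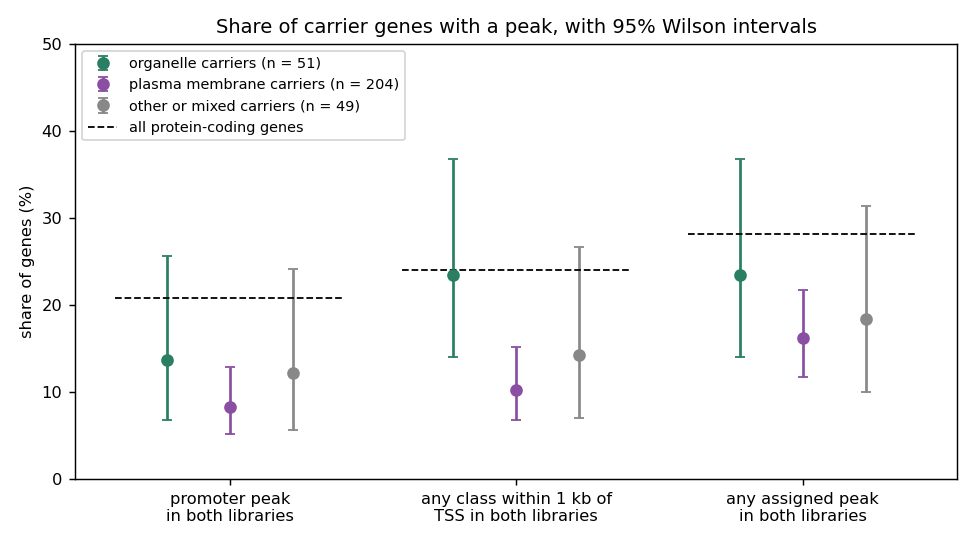
Share of genes (%, vertical axis) with a ZBTB16 peak in both libraries among 51 organelle, 204 plasma membrane and 49 other or mixed carriers, by 3 rules for a peak. Points are shares, bars are 95% Wilson intervals (counting error over genes only) and dashed lines are the shares of all protein-coding genes (20.8%, 24.1% and 28.2%). Organelle carriers lie closest to the dashed line when peaks of any class near the TSS count.

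Within the class the families gave different counts. In the zinc exporter family SLC30, 3 of 10 genes were bound (30.0%, 10.8 to 60.3). In the zinc importer family SLC39, 2 of 14 were bound (14.3%, 4.01 to 39.9), and in the nucleotide sugar family SLC35, 2 of 27 (7.41%, 2.06 to 23.4). Within 1 kb of the TSS by any class, 6 of 27 SLC35 genes had a peak in both libraries (22.2%, 10.6 to 40.8), since 4 more had peaks that began just inside the gene. Some members of the zinc families sit at the plasma membrane, SLC30A1 and SLC39A10 among the bound ones. With those members moved to the other class, 12.8% of organelle carriers and 8.80% of plasma membrane carriers were bound, a difference of 4.02 points (−4.5 to 18.2). This move was made for promoter peaks only. The differences by the other rules keep SLC30A1 and SLC39A10 among the organelle carriers.

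SLC39A10, a zinc importer of the plasma membrane, had the highest enrichment of the organelle families. Its promoter peak was 8.90-fold over background in replicate 1 (44 fragments, exact Poisson interval 32.0 to 59.1) and 7.25-fold in replicate 2 (29 fragments, 19.4 to 41.6). In replicate 1 the peak lay on chromosome 15 from 99654490 to 99655013, in replicate 2 from 99654593 to 99655108, and both summits were 308 bp upstream of the assigned TSS. That TSS lies inside the gene, which spans 99584830 to 99724621. SLC39A13, a zinc carrier of the Golgi apparatus and intracellular vesicles, had 5.16-fold and 4.94-fold peaks that started at the same base, 15203035 on chromosome 2. Both of its peaks ended 99 bp upstream of the TSS and so did not reach it.

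SLC30A1, the zinc exporter of the plasma membrane, had a 5.87-fold peak in replicate 1 and a 4.81-fold peak in replicate 2. These were the bound organelle peaks farthest from a start, with summits 680 bp and 734 bp upstream of the TSS, at 131632825 to 131633186 and 131632798 to 131633158 on chromosome 9. Replicate 1 also gave SLC30A1 a 6.08-fold and a 3.85-fold peak 35.0 kb and 42.0 kb upstream, and neither overlapped a peak of replicate 2. SLC30A6, a subunit of a Golgi zinc transporter that works together with SLC30A5, had 5.75-fold and 5.54-fold peaks over its TSS on chromosome 3 (107426169 to 107426466 in replicate 1). SLC30A4, which loads zinc into vesicles, was the weakest of the class at 3.80-fold and 4.64-fold, from 10 and 12 fragments. SLC30A5 itself had a 3.97-fold promoter peak in replicate 1 and none in replicate 2, so of this pair of partners only SLC30A6 was called in both.

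SLC35A1, which carries CMP-sialic acid into the Golgi apparatus, had 6.07-fold and 6.29-fold peaks that spanned the TSS over 990 bp in replicate 1 and 1062 bp in replicate 2. The replicate 1 peak lay on chromosome 1 from 55859546 to 55860535. SLC35E2B, whose substrate is not established, had a peak with the same bounds in both libraries, 63841750 to 63842209 on chromosome 6, at 6.95-fold and 6.46-fold. The other SLC35 genes with peaks in both libraries had them inside the 5′ UTR. SLC35B3, a carrier of the sulfate donor PAPS, had 4.50-fold and 4.76-fold peaks that began 59 bp and 76 bp downstream of the TSS. SLC35B4, a carrier of UDP-xylose and UDP-N-acetylglucosamine, had 5.91-fold and 5.25-fold peaks that began 80 bp and 395 bp downstream. The orphan SLC35E3 had 5.95-fold and 4.70-fold peaks 51 bp and 81 bp downstream, and SLC35E4 had 4.42-fold and 5.45-fold peaks 431 bp and 995 bp downstream. All of these began within 1 kb downstream of a TSS, past the end of the promoter class, and so were not counted as bound.

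Among the zinc importers, SLC39A3 crossed that boundary between libraries, with a 6.94-fold promoter peak in replicate 1 and a 4.62-fold 5′ UTR peak 85 bp downstream of the TSS in replicate 2. The remaining organelle carriers with an assigned peak had it in 1 library. SLC35B1, an ATP carrier of the endoplasmic reticulum, was the strongest of them, with a 7.38-fold promoter peak of 24 fragments in replicate 1. SLC30A2 at 6.22-fold, SLC39A9 at 6.17-fold, SLC39A14 at 5.19-fold and SLC35F5 at 5.15-fold also had a promoter peak in replicate 1 alone. In replicate 2 alone, SLC35F1 had a 5.32-fold promoter peak, and SLC30A9 and SLC35D2 had 5′ UTR peaks of 4.79-fold and 4.31-fold that began 6 bp and 25 bp downstream of the TSS. SLC39A7 had a 3.99-fold 5′ UTR peak in replicate 2 that overlapped a 4.28-fold replicate 1 promoter peak assigned to its neighbour RXRB. No peak in either library was assigned to the UDP-galactose carrier SLC35A2 or to the PAPS carrier SLC35B2. The same was true of the zinc importers SLC39A4 and SLC39A8 and of SLC30A8, the zinc carrier of insulin granules. A list of 18 Golgi nucleotide sugar carriers followed the subfamilies A to E of SLC35, and so also held SLC35B1 and orphans such as SLC35E2B. Of these 18, 2 were bound, 4 more had a peak near the TSS in both libraries, 3 had another peak and 9 had no assigned peak. Among those without one, SLC35A4 and SLC35A5 had a peak at a gene end in both libraries that was assigned to a neighbour.

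The highest enrichment of all bound solute carrier genes was that of SLC2A8, a sugar transporter of intracellular membranes that is abundant in testis. Its promoter peak on chromosome 1 was 9.42-fold in replicate 1 (267924535 to 267925342) and 10.8-fold in replicate 2 (267924530 to 267925408), from 71 fragments (55.5 to 89.6) and 63 fragments (48.4 to 80.6). By fold these stood at the 98.7th and 99.7th percentile of all peaks of their library. SLC27A1, a fatty acid transport protein, followed with 7.86-fold and 7.81-fold peaks from 71 and 54 fragments on chromosome 2 (60233508 to 60234625 in replicate 1).

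The other bound carriers of mixed location were weaker. SLC37A4, the glucose 6-phosphate translocase of the endoplasmic reticulum, had 6.16-fold and 4.69-fold peaks. SLC46A3, a lysosomal carrier, had 5.33-fold and 4.99-fold peaks, and SLC33A1, the acetyl-CoA transporter of the endoplasmic reticulum, had 4.79-fold and 3.91-fold peaks. SLC31A2, which handles copper in endosomes, stood at 3.73-fold and 3.75-fold from 11 and 9 fragments, near the low end of the bound genes in both libraries.

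Of the 17 bound plasma membrane carriers, 5 move ions or set pH. SLC4A8, a sodium-driven chloride-bicarbonate exchanger, had 7.86-fold and 6.87-fold peaks that started at the same base, 16842630 on chromosome 5. SLC9A9, a sodium/proton exchanger that was classed by its family although it is known from endosomes, had 7.21-fold and 6.80-fold peaks with summits 532 bp and 487 bp downstream of the TSS. SLC12A9, a member of the cation-chloride cotransporter family, had 3.97-fold and 6.21-fold peaks, the widest ratio in favour of replicate 2. SLC4A2, the widely expressed anion exchanger, was the only bound member whose peaks did not overlap. It had a 3.54-fold peak at 6164934 to 6165407 on chromosome 18 in replicate 1 and a 4.23-fold peak at 6166433 to 6166863 in replicate 2, each over the start of a transcript. The replicate 2 peak overlapped a 3.06-fold replicate 1 promoter peak (6166751 to 6167137) that was assigned to the neighbouring gene CDK5. Of all 40 carriers of ions and pH, 5 were bound (12.5%, 5.46 to 26.1).

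Substrate groups follow the main substrate of a family, so the sugar group holds all of SLC5, with its iodide, choline and vitamin carriers, and the amino acid group all of SLC6, with its monoamine and creatine carriers. In the sugar group, 5 of 34 were bound (14.7%, 6.45 to 30.1): SLC2A8 and SLC37A4 above, and 3 of the plasma membrane class. SLC5A3, the sodium/myo-inositol cotransporter, had 7.41-fold and 6.29-fold peaks. SLC2A3, the high-affinity glucose transporter, had 3.46-fold and 4.62-fold peaks from 11 fragments in each library, the lowest replicate 1 value of the bound genes. SLC2A6, likewise classed by its family although it is known from lysosomes, had 3.75-fold and 4.67-fold peaks. SLC2A1, the basal glucose transporter of most cells, had peaks in both libraries but none near its start. They lay 27.4 kb downstream and 40.0 kb upstream of the TSS in replicate 1 and 7.5 kb downstream in replicate 2, and did not coincide.

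In the amino acid group, the largest, 3 of 63 were bound (4.76%, 1.63 to 13.1). SLC38A6, an orphan of the sodium-coupled neutral amino acid family, had 6.78-fold and 5.60-fold peaks. SLC43A2, a carrier of large neutral amino acids, had 5.17-fold and 5.59-fold peaks. SLC6A9, a glycine transporter, had 5.74-fold and 3.80-fold peaks, with 26 and 13 fragments. SLC1A4, a carrier of alanine, serine and cysteine, had the strongest promoter peak found in 1 library only among the members of replicate 2, 7.01-fold from 19 fragments, and in replicate 1 only a 4.49-fold peak 15.6 kb upstream. The glutamine carrier SLC1A5 had a 4.71-fold promoter peak in replicate 2 and no peak in replicate 1.

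Among anion carriers 3 of 30 were bound (10.0%, 3.46 to 25.6). SLC26A2, a sulfate transporter, had 5.95-fold and 5.29-fold peaks, and SLC26A6, a chloride-anion exchanger, had 5.97-fold and 4.34-fold peaks whose summits both lay 29 bp upstream of the TSS. SLC20A1, a sodium-phosphate cotransporter, had 5.03-fold and 5.78-fold peaks. Among the vitamin and nucleoside carriers 3 of 18 were bound (16.7%, 5.84 to 39.2). Besides SLC46A3 these were SLC19A2, a thiamine transporter at 4.58-fold and 4.12-fold, and SLC52A2, a riboflavin transporter. SLC52A2 had a 4.40-fold peak in replicate 1 that overlapped a 4.27-fold peak in replicate 2, where a second promoter peak of 5.29-fold lay over the start of another transcript. Among other metal carriers 2 of 9 were bound (22.2%, 6.32 to 54.7), namely SLC31A2 and the magnesium transporter SLC41A1 at 6.50-fold and 6.05-fold. The iron exporter SLC40A1 had a 6.17-fold promoter peak in replicate 1 alone, and the iron importer SLC11A2 had a 4.71-fold promoter peak in replicate 1 and a 4.03-fold 5′ UTR peak 64 bp downstream of the TSS in replicate 2.

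**Figure D2:**
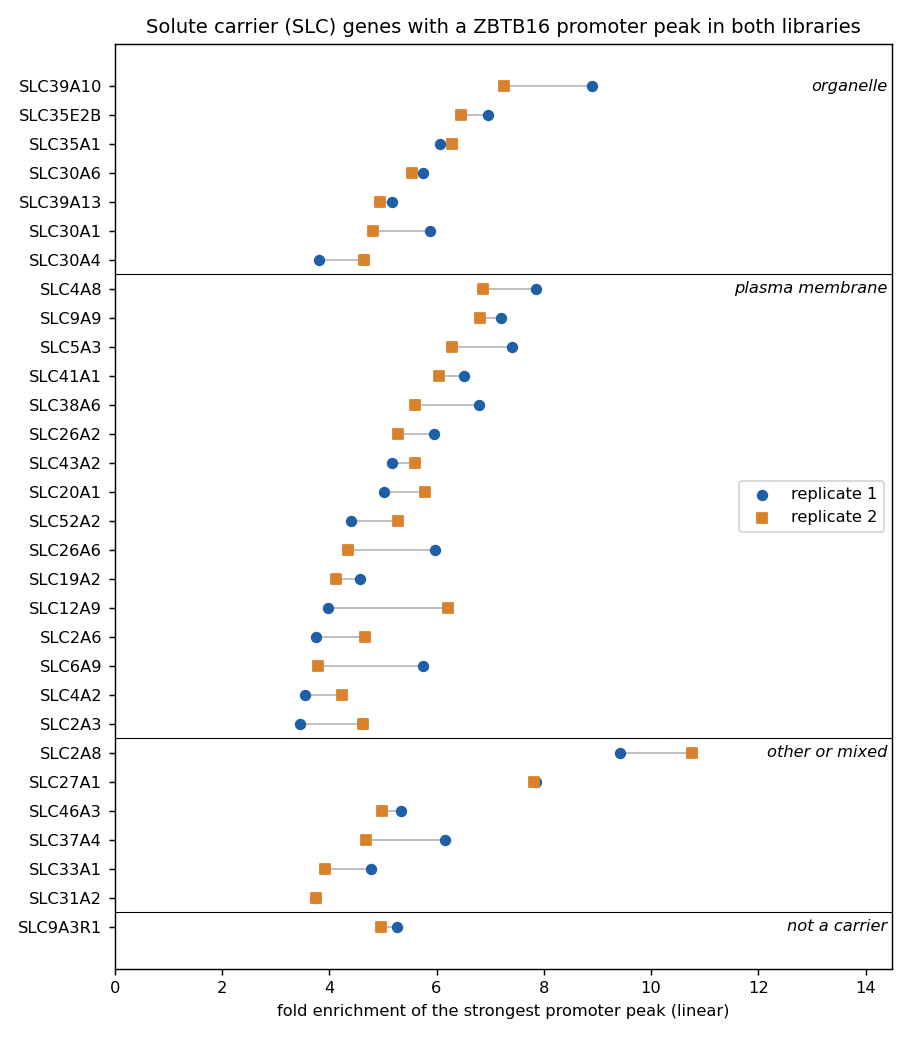
Fold enrichment over background (horizontal axis, linear) of the strongest promoter peak of 30 of the 31 bound solute carrier genes in replicate 1 (circles) and replicate 2 (squares), by class. A grey line joins the 2 libraries of a gene. SLC2A8 stands apart at 9.42-fold and 10.8-fold, and the organelle and plasma membrane classes cover much the same range.

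No bound gene was found among the 18 organic ion carriers, which are the SLC22 family of drug, organic anion and carnitine carriers, nor among the 14 monocarboxylate carriers of SLC16. A count of 0 allows a share of up to 16.7% and 21.4% of such genes. A peak in both libraries did cover an end of the carnitine transporter SLC22A5 but was assigned to another gene, LOC102157444. The members of SLC16 came closest with SLC16A13, which had 5′ UTR peaks of 3.88-fold and 4.85-fold that began 57 bp and 42 bp downstream of the TSS. By family, 21 of 47 had at least 1 bound gene and 26 had none, SLC22 being the largest without one. SLC7 with 12 genes, SLC1 with 7 and SLC10 with 7 had none either. The zinc carriers together reached 20.8% (5 of 24, 9.24 to 40.5), at the share of all genes, with an interval wide enough to hold most other groups.

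**Figure D3:**
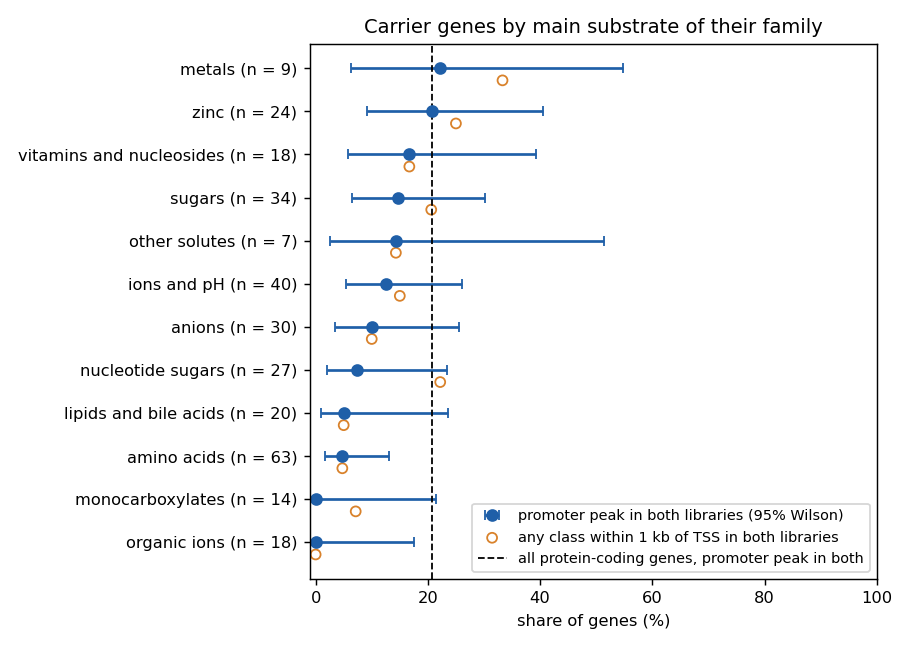
Share of carrier genes (%, horizontal axis) with a ZBTB16 peak in both libraries by substrate group, with the number of genes in brackets; groups follow the main substrate of each family. Filled points are promoter peaks with 95% Wilson intervals, open circles are peaks of any class within 1 kb of the TSS, and the dashed line is the promoter share of all protein-coding genes, 20.8%. By promoter peaks, metal and zinc carriers lie at that line, and the amino acid and organic ion groups lie below it with their whole interval. Nucleotide sugar carriers stand at 7.41% by promoter peaks and at 22.2% by peaks of any class. The share of all genes by the any-class rule is 24.1%, which no line marks.

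The following lists of carriers by tissue and task each held 1 bound gene or none, against 20.8% of all protein-coding genes. With 13, 6 and 10 genes, the nutrient, lysosomal and germ cell lists are too small to be set apart from that share. Of 13 carriers that bring nutrients into growing cells, 1 was bound, SLC2A3 (7.69%, 1.37 to 33.3). SLC3A2, the heavy chain of amino acid exchangers, had a 3.20-fold promoter peak in replicate 2 that overlapped a 4.31-fold replicate 1 promoter peak assigned to LOC100627892, and the folate carrier SLC19A1 had a 4.07-fold one in replicate 1 only. The cationic amino acid carrier SLC7A1, the cystine carrier SLC7A11, the glutamine carriers SLC38A1 and SLC38A2, the lactate carrier SLC16A1 and the nucleoside carrier SLC29A1 had no assigned peak. None of 6 carriers linked to amino acid sensing at the lysosome was bound, and a count of 0 of 6 allows up to 50.0%. There, SLC36A1 had a 3.91-fold promoter peak in replicate 1 and SLC15A4 a 5.03-fold promoter peak in replicate 2. Of 10 carriers of sperm and germ cells, 1 was bound, SLC2A8 (10.0%, 1.79 to 40.4). None of 21 carriers of kidney and gut and none of 21 neuronal and amine carriers was bound, and each count of 0 allows up to 14.3%. In each of these lists 1 gene had peaks near the TSS in both libraries. For the intestinal glucose carrier SLC5A1 they were 3.71-fold and 4.55-fold. For SLC12A5, the potassium-chloride cotransporter of neurons, they were 6.60-fold and 5.86-fold intron peaks with the same first base, 283 bp downstream of the TSS, from 29 and 21 fragments. SLC12A5 thus had more enrichment than most bound members without being counted as bound.

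Peaks of bound solute carrier genes lay in the range of those of other bound genes. The median fold of the strongest promoter peak was 5.74 in replicate 1 (3.46 to 9.42) and 5.29 in replicate 2 (3.75 to 10.8), against 5.85 and 5.45 for all 3438 bound genes. The peak spanned the TSS in 27 of 31 members in each library (87.1%), against 86.9% and 84.2% of all bound genes. Median width was 562 bp and 516 bp, against 662 bp and 550 bp. By class, the median fold of bound organelle carriers was 5.87 in replicate 1 and 5.54 in replicate 2, against 5.55 and 5.29 for bound plasma membrane carriers. Fold was above the median of all peaks for 22 bound members in replicate 1 (71.0%) and 16 in replicate 2 (51.6%), against 74.4% and 64.4% of all bound genes. The replicate 1 fold was the higher one in 20 of the 31, the ratio of replicate 1 to replicate 2 ran from 0.64 to 1.51 with a median of 1.06, and it passed 1.5 times in either direction for 2 genes, SLC12A9 and SLC6A9. This is 6.45% of bound members, against 6.05% of all bound genes.

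Promoter peaks of members with a promoter call in 1 library only were weaker at the median and rested on fewer fragments. Some of these peaks still overlapped a peak of the other library that had another class or another gene, as for SLC39A3 and SLC12A2. In replicate 1 the 27 members with a promoter call there but not in replicate 2, whatever other peaks they had, gave a median of 4.19-fold and 15 fragments, and the 31 bound members 5.74-fold and 24 fragments. In replicate 2 the 9 members with a promoter call there but not in replicate 1 gave a median of 4.47-fold and 12 fragments, and the bound members 5.29-fold and 18 fragments. All genes showed the same order, with 4.73 against 5.85 in replicate 1 and 4.60 against 5.45 in replicate 2. The number of fragments moved with these calls, and its part in them was not tested.

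**Figure D4:**
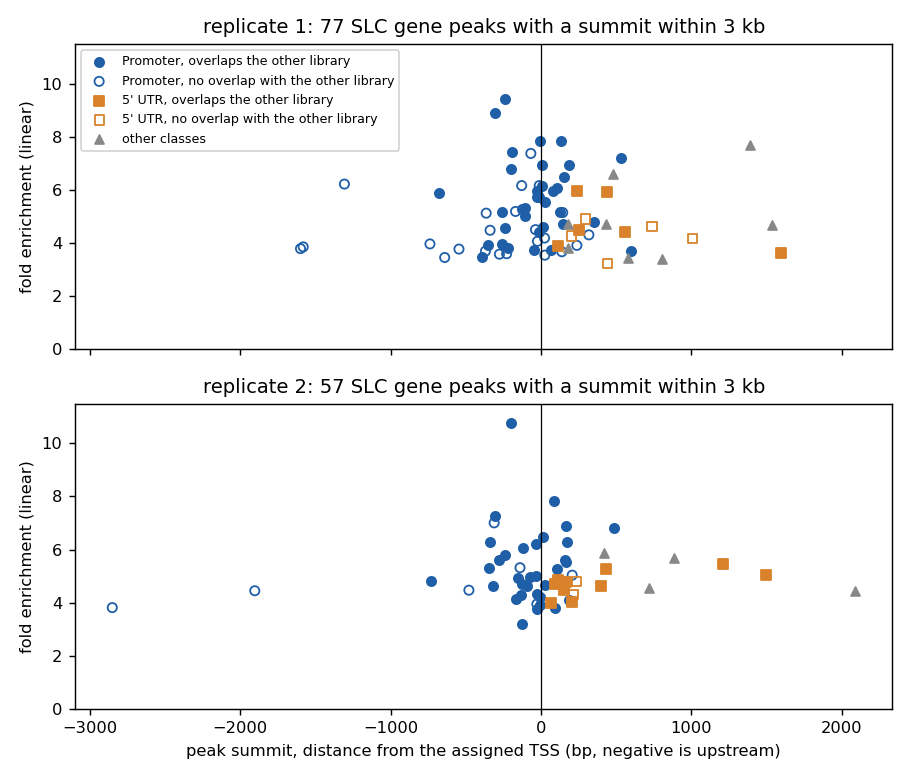
Distance of the peak summit from the assigned TSS (horizontal axis, bp, negative upstream) against fold enrichment (vertical axis, linear) for the 77 solute carrier gene peaks of replicate 1 and the 57 of replicate 2 with a summit within 3 kb. Filled symbols overlap a peak of the other library and open ones do not, circles are promoter peaks, squares 5′ UTR peaks and triangles other classes. Most summits lie within 500 bp of the TSS, and 5′ UTR peaks lie on the downstream side, which the end of the promoter class at the TSS sets.

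Within 500 bp of the TSS lay the summits of 49 of 58 promoter peaks of members in replicate 1 and 38 of 41 in replicate 2. The same count was not made for all promoter peaks, and the class itself ends at the TSS. For the strongest promoter peaks of bound members the median summit was at −24 bp in replicate 1 and −33 bp in replicate 2. For all bound genes it was at −59 bp and −56.5 bp (negative is upstream). Promoter peaks made up 51.3% of the solute carrier gene peaks of replicate 1 and 54.7% of those of replicate 2, against 60.8% and 64.0% of all peaks. Peaks in 5′ UTRs made up 9.73% and 16.0%, against 7.82% and 8.71%. Of the 113 member peaks of replicate 1, 49 shared 1 bp or more with a peak of replicate 2 (43.4%, 34.6 to 52.6), against 53.2% of all replicate 1 peaks. Of promoter peaks alone, 60.3% overlapped, against 66.9% of all promoter peaks. Seen from replicate 2, 69.3% of 75 member peaks overlapped one of replicate 1 (58.2 to 78.6), against 75.0% of all.

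Each peak was assigned to 1 gene by the authors, so a carrier that shares its promoter with a neighbour can lose or gain a call. Of the 31 bound members, 6 had an end of another protein-coding gene within 1 kb of the replicate 1 promoter peak (19.4%), against 22.2% of all bound genes. For SLC38A6 this was TRMT5, a tRNA methyltransferase whose end lay inside the peak, and for SLC5A3 it was MRPS6, a mitochondrial ribosomal protein 46 bp away. SLC9A9 had C13H3orf58 at 105 bp, and SLC26A6, SLC9A3R1 and SLC52A2 had CELSR3, RAB37 and TMEM249 at 533 bp, 697 bp and 725 bp. Without strand in the gene table, such an end may or may not be a start, so a shared promoter was not established for these 6. In replicate 2, the SLC4A2 peak and the stronger SLC52A2 peak overlapped replicate 1 promoter peaks that were assigned to CDK5 and FBXL6, so these peaks cannot be given to 1 gene.

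In the other direction, 22 members without an assigned peak in both libraries had a peak in both within 1 kb of a gene end that was assigned to another gene. They comprised 6 organelle carriers, 10 plasma membrane carriers and 5 of other location, besides SLC7A6OS. The organelle carriers were SLC35A4 beside APBB3 (7.15-fold and 5.76-fold), SLC39A6 beside ELP2 (6.55-fold and 5.30-fold) and SLC39A1 beside CRTC2 (5.98-fold and 5.55-fold). The rest of them were SLC35A5 beside the autophagy gene ATG3 (5.58-fold and 5.20-fold), SLC35G6 beside POLR2A (4.78-fold and 5.32-fold) and SLC30A7 beside EXTL2 (4.63-fold and 3.66-fold). The strongest was that of SLC22A5, 9.37-fold and 9.45-fold. For SLC38A9, the lysosomal arginine sensor, a 5.27-fold and 6.56-fold peak was assigned to LOC102165748, and for the multivitamin carrier SLC5A6 a 6.76-fold and 6.42-fold peak was assigned to ATRAID. The gene table carries no strand, so either end of a gene was allowed, which includes ends of genes that are not starts. Counted that way, 35.3% of organelle carriers and 14.7% of plasma membrane carriers had a peak in both libraries, a difference of 20.6 points (7.69 to 34.9), against 29.0% of all genes.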

How the data were processed

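The authors deposited 1 peak list per library, and the submitters' processing notes name Sscrofa11.1 as the build. The sources used here do not give the aligner, the peak caller and its control, the annotation program or the sequencing depth. Each peak carries, per the file headers, a linear fold ratio to the caller's background, a −log10 p-value and −log10 q-value, and the gene, class and distance to the TSS assigned by the authors. The smallest −log10 q-value the authors kept was 1.31 in either list. Fragments at the summit were recovered from fold = (fragments + 1)/(background + 1) and the Poisson tail for 100% of the member peaks within a relative tolerance of 1e-05, after a check on simulated data. Intervals on fragments are exact Poisson, on shares Wilson, and on differences Newcombe, at 95%; they cover counting error only, and PCR copies are not independent molecules. Limits for counts of 0 are 3 counts of the total.

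A gene was bound when both libraries held a promoter peak assigned to it. All genes stands for every protein-coding RefSeq gene with a unique symbol that is no LOC number. Classes by location and substrate were written from general knowledge. The 5 genes that encode no carrier were left out of these classes after values were seen, and stay in the counts of the 309 genes. Members, lists and rules were chosen with earlier results of these data known. Named genes are all bound organelle carriers, up to 25 other bound genes by their lower percentile of fold (1 of them is not reported here), carriers of the lists by task (given in part as counts), and neighbours at a bound promoter. Other genes were named after their values were seen. No test was run. Promoter sequence was not used here. The work was done in Python 3.11.15 with matplotlib 3.10.9, scipy 1.17.1, pandas 2.3.3 and numpy 2.4.6.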

Additional observations from a re-analysis of the deposited data

How the results depend on the processing

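The count of 31 bound genes was within 1.5 times itself with equally long peak lists (25), with promoter peaks within 1 kb (31), with overlapping promoter peaks (30) and, in a rule added after the data were seen, with peaks of any class within 1 kb of the TSS (41). Asking for 1 library in place of both gave 40 to 58. Peaks above the median fold of their library left 14 (4.53% of members, against 11.6% of all genes), any assigned peak gave 55, and peaks within 1 kb of either gene end, whatever gene they were assigned to, gave 61. Under each of these rules the share of members was below that of all genes. The organelle minus plasma membrane difference of 5.39 points was positive under every alternative, and these alternatives reuse the same peaks. Its interval lay wholly on the positive side with replicate 1 alone (1.55 to 27.3) and with either gene end (7.69 to 34.9). The same held for peaks of any class within 1 kb of the TSS (2.51 to 26.9), and under no other rule. The difference was 3.92 to 13.2 points with 1 library, and 20.6 points with either gene end. In the others it lay between 3.92 and 13.2 points, including 4.63 against all other carriers, 4.02 by protein location and 6.30 with SLC9A9 and SLC2A6 taken out of the plasma membrane class, the last added after the data were seen. The share of replicate 1 member peaks found again was 43.4%, 31.9% with reciprocal overlap of 50%, and 38.6% for peaks above the median fold. The causes of these shifts were not tested. No paired analysis was possible because there is 1 group. The planned description of promoter composition was not run. With medians of 15 and 13 fragments per peak, a promoter without a peak shows only that no signal passed the authors' threshold there.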

Other observations

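In 8 genes a member peak more than 1 kb from the TSS overlapped one of the other library. Of replicate 1 member peaks 20.0% of distal intergenic, 11.8% of intron and 20.0% of exon peaks overlapped one of replicate 2, against 25.3%, 22.6% and 35.4% of all peaks. These shares rest on 15, 17 and 10 member peaks, and the differences were not tested. SLC45A4, a putative sugar transporter, had 5.83-fold and 5.71-fold intergenic peaks 27.8 kb upstream that ended within 2 bp of each other, and SLC28A3, a concentrative nucleoside transporter, had 6.05-fold and 4.44-fold peaks 35.8 kb upstream. SLC52A3, a riboflavin transporter, had 6.01-fold and 4.52-fold peaks in its 3′ UTR, 15.4 kb from the TSS. SLC17A5, the lysosomal sialic acid exporter, had 5.29-fold and 4.11-fold peaks 65.1 kb downstream, and SLC38A4, an amino acid carrier, had 4.92-fold and 4.14-fold peaks 79.2 kb downstream of its TSS, in an intron of LOC106510390. SLC8A2, a sodium/calcium exchanger, SLC3A2 and SLC26A1, a sulfate carrier with a 5′ UTR peak 1.3 kb from the TSS, were the others. Distances are those of replicate 1, and these genes were chosen after their values were seen.

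None of the 9 solute carrier genes on the X chromosome had an assigned peak in either library, among them the creatine carrier SLC6A8 and the UDP-galactose carrier SLC35A2. A count of 0 of 9 allows a share of up to 33.3%. Of all X-linked genes, 72 of 609 (11.8%) had an assigned peak in both libraries and 48 (7.88%) a promoter peak in both. The share of X-linked genes with a peak in either library was not computed. Bound members had a median gene length of 27.0 kb and members that were not bound 35.4 kb, against 29.9 kb and 24.2 kb for all bound genes and all genes that were not bound.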
